A study of Homo sapiens with 2 samples.

Results

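The genes described here are 10 regulators and structural genes of the epithelial and mesenchymal state, namely the transcription factor genes ZEB1, ZEB2, SNAI1, SNAI2 and TWIST1, the filament genes VIM, KRT8, KRT18 and KRT19, and the matrix gene FN1. They were taken as every probe that the array files name after one of these genes, which gave 20 probes of the 41000 probes and 10 of the 30238 gene names on the array. The parent of both lines, A2780, is an ovarian carcinoma cell line of human origin, which the study describes as likely endometrioid. A2780CBN was selected in rising doses of carboplatin, a DNA-platinating drug, up to 22.2 µM. A2780CBNDXL was selected in carboplatin and docetaxel, a microtubule-stabilizing taxane, together. The labels give its terminal dose as 8.02 µM of the combination without dividing it between the drugs. The study reports that figure as the inhibitory concentration of carboplatin for this line, with docetaxel at a far lower concentration. It does not give it as a dose of selection. In the study, selection ended at lower concentrations of both drugs, which also served for maintenance. The control, A2780CC, was A2780 kept in culture beside each line to allow for changes that come with time in culture. The lines are selected populations. RNA of 3 isolations of a line was pooled into 1 sample, and each sample was hybridized together with its control on 4 arrays, with forward and reverse dye labelling on each of 2 slides. The 4 arrays of a line therefore repeat 1 sample, and the SD given below covers labelling and hybridization error and not the spread between cultures, so no test across cultures was possible.

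Epithelial cells can lose their junctions and keratin network and take on a mesenchymal shape, a process called epithelial-mesenchymal transition. ZEB, SNAI and TWIST proteins are transcription factors known for driving this change. The zinc finger proteins of the ZEB and SNAI families bind E-boxes, short DNA motifs, in genes such as CDH1, which encodes the epithelial adhesion protein E-cadherin, and repress them. Vimentin is the intermediate filament protein of mesenchymal cells, fibronectin is a matrix glycoprotein bound by integrins, and keratins 8, 18 and 19 form the intermediate filaments of simple epithelia, with keratin 8 pairing with keratin 18. The array measures RNA, and fewer cells of a type cannot be told apart from less RNA per cell in these cultures.

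The probes are 60 bases long, and those on which the FN1, KRT18 and VIM results rest are shown here 5′ to 3′ on the transcript strand, so that a reader can see which piece of each transcript was measured. Coordinates are those of the array design on NCBI36. A probe whose coordinates run over more than its own length crosses an intron.
FN1, brightest probe, chr2:215934577-215934978, minus strand: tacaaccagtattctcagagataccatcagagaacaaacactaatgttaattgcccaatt
FN1, second probe, chr2:215943371-215944906, minus strand: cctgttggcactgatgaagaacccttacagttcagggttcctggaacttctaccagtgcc
FN1, upstream probe, chr2:215996462-215997140, minus strand: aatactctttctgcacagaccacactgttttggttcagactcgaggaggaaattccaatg
KRT18, brightest probe, chr12:51632383-51632821, plus strand: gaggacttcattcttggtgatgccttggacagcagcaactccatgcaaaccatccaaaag
KRT18, second probe, chr12:51630879-51630938, plus strand: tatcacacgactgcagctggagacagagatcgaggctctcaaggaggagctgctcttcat
KRT18, middle probe, chr12:51631844-51631903, plus strand: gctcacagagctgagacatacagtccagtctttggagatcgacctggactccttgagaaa
VIM, brightest probe, chr10:17317191-17317250, plus strand: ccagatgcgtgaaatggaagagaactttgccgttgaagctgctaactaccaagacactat
VIM, second probe, chr10:17318353-17319262, plus strand: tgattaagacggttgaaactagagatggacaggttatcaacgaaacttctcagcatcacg
The first FN1 probe starts at base 7586 of its transcript and the second at base 6950, while the upstream probe starts at base 1455 of a transcript filed under another accession, so it lies much farther upstream in the gene. The KRT18 probes start at bases 1276, 693 and 999 of 1 transcript. KRT8 and KRT18 have processed pseudogenes elsewhere in the genome, and cross-hybridization of their probes was not tested.

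Each array held 43376 spots besides control spots, with 59.8 to 67.5% of them well above background and none saturated. For each gene the brightest probe on average over all arrays was used. It was taken as changed where its mean log2 ratio of line over control reached a size of 1, no array had the opposite sign, and the line or the control was well above background throughout. This is called the 2-fold rule below. Of 9 markers of ovarian carcinoma, 5 were well above background on all 4 arrays of A2780CBN and in A2780CBNDXL, namely PAX8, EPCAM, MUC1, ESR1 and CLDN3, and WT1, KRT7, MUC16 and CLDN4 were not. None of the 4 endothelial markers was above background on all arrays in any channel. Among the leukocyte markers, CD3E and CD14 were above background in every channel, and PTPRC and LYZ in none.

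In A2780CBN 4 of the 9 members that could be tested changed, where 12.6% of all 17951 genes tested did. FN1, VIM and KRT18 rose, where 8.0% of all genes were higher, and ZEB2 fell, where 4.55% were lower. In A2780CBNDXL 1 of 8 members tested changed, beside 16.9% of all 17116 genes tested, of which 7.7% were higher and 9.2% lower. That gene was SNAI1, which fell. The median log2 ratio of the members tested was -0.37 in A2780CBN and 0.24 in A2780CBNDXL, beside -0.06 and 0.04 over all genes tested. SNAI2 was not tested in A2780CBN, since the software marked its spot on array 4 as an outlier, and FN1 and KRT19 were not tested in A2780CBNDXL, since neither the line nor the control was above background on all arrays. No member passed the rule in both lines, FN1 being at background in A2780CBNDXL, as the plot of ratios on each array shows. VIM and KRT18 lay just past the limit. With normexp background correction and loess normalization, changed together, in place of the processed signals, VIM remained changed in A2780CBN, while ZEB2 at -0.30, FN1 at 0.71 and KRT18 at 0.89 in A2780CBN and SNAI1 at -0.65 in A2780CBNDXL lost their calls. With background-subtracted signals centred on the median, FN1, VIM, KRT18 and SNAI1 kept their calls, and ZEB2 stood at -3.19 in A2780CBN but was no longer among the members tested.

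**Figure D1:**
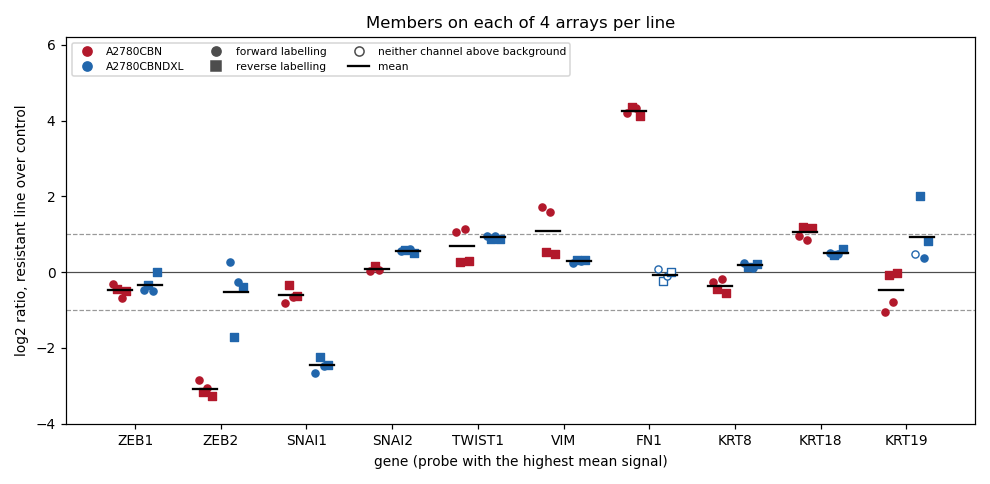
Log2 ratio of line to control (vertical axis) for the brightest probe of each member (horizontal axis) on each of 4 arrays, A2780CBN in red and A2780CBNDXL in blue, circles for forward and squares for reverse labelling, open where neither channel was above background on that array, with a black line at the mean and dashed lines at 2-fold. FN1 of A2780CBN stands at 4.13 to 4.35 and ZEB2 at -2.85 to -3.28, while SNAI1 of A2780CBNDXL stands at -2.23 to -2.65.

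Among the regulators, ZEB2 was lower in A2780CBN and SNAI1 was lower in A2780CBNDXL, and by its best probe no regulator passed the rule in the upward direction. For ZEB2, a zinc finger repressor, the best probe lies on chromosome 2 from 144862731 to 144862790 on the minus strand. Its processed signal in the A2780CBN control was 59.8, 57.3, 50.8 and 58.1 on arrays 1 to 4, well above background each time. In the A2780CBN line the signal was 8.29, 6.35, 6.08 and 5.97, and none of these was above background. The line thus lay below the control on every array and no overlap was seen. The log2 ratio was -3.09 ± 0.19 (SD, n = 4 arrays), and because the line was not well above background the change is given as at least 2.53-fold lower, which divides the average of the brighter sample by the higher of 2 values per array, the lowest signal marked well above background and the signal of the dim probe itself, after Aquantile scaling between arrays. In A2780CBNDXL the signal of ZEB2 was 119, 27.9, 44.4 and 34.3 in the line, above background on 2 of 4 arrays, and 98.6, 90.6, 52.8 and 44.8 in the control. The ranges of line and control overlapped there, and the log2 ratio of -0.52 ± 0.84 was smaller than the spread between arrays. The other 2 ZEB2 probes, filed under an accession of their own, were not above background in any channel of any array and so gave no level for either line.

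SNAI1 encodes the Snail repressor, and its probe lies on chromosome 20 from 48038577 to 48038636. In A2780CBNDXL the signal was 35.3, 47.7, 42.5 and 34.7 in the line and 221, 225, 236 and 189 in its control. The line was above background on 2 of the 4 arrays, and every line value lay below every control value. The log2 ratio was -2.45 ± 0.17, with a line signal that was not fully above background. In A2780CBN the signal was 99.0, 102, 95.5 and 94.9 in the line and 173, 130, 151 and 146 in the control. Line and control did not overlap in A2780CBN either, but the log2 ratio of -0.61 ± 0.19 stayed inside the 2-fold limit.

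SNAI2, which encodes the related repressor Slug, was bright in all 4 channels. In A2780CBNDXL the signal of its best probe was 7220, 8794, 6356 and 6086 in the line and 4897, 5839, 4188 and 4292 in the control. The log2 ratio of 0.56 ± 0.04 varied little between arrays and was below the 2-fold limit. In A2780CBN the 3 arrays left gave 5809, 6261 and 4172 in the line and 5706, 5662 and 4019 in the control, and the log2 ratio was 0.09 ± 0.06 (n = 3 arrays). A second SNAI2 probe was dim, with mean signals of 62.7 to 112 in the 4 channels. Its log2 ratio was 0.22 ± 0.71 in A2780CBN, where it was 0.83 with forward and -0.39 with reverse labelling, and 0.80 ± 0.43 in A2780CBNDXL. Neither probe passed the 2-fold rule where it was tested, and the second had no constant sign over the arrays of A2780CBN.

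TWIST1, a basic helix-loop-helix factor, had the highest ratio of the regulators in both lines. Its best probe, on chromosome 7 from 19122025 to 19122084, gave a log2 ratio of 0.95, 0.88, 0.96 and 0.88 on the arrays of A2780CBNDXL, with signals of 22413 to 26861 in the line and 12207 to 14462 in the control. A further probe, from 19122170 to 19122229, gave 0.80, 1.25, 0.95 and 1.06. The mean was 0.92 ± 0.04 by the first probe and 1.02 ± 0.19 by the second, so that the second passed the 2-fold rule and the first did not. In A2780CBN the ratio depended on the labelling. The best probe gave 1.07 and 1.15 on the forward arrays and 0.28 and 0.30 on the reverse arrays, and the second gave 1.13 and 1.05 against 0.16 and 0.28. The mean was 0.70 ± 0.47 and 0.66 ± 0.51, and every array had the line above the control.

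ZEB1, the paralogue of ZEB2, had a single probe, on chromosome 10 from 31852945 to 31853004. It was above background in every channel, with signals of 77.5 to 121 in A2780CBN against 123 to 150 in its control. In A2780CBNDXL they were 89.7 to 117 against 117 to 144. The log2 ratio was -0.48 ± 0.15 in A2780CBN and -0.33 ± 0.23 in A2780CBNDXL. ZEB1 thus lay below the control by less than 2-fold on all 4 arrays of A2780CBN and on 3 of the 4 arrays of A2780CBNDXL, the ratio on the last of these being 0.00. This differed from ZEB2 in A2780CBN, whose ratio was beyond 2-fold on all 4 arrays.

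FN1, which encodes fibronectin, had the largest ratio among the members. Its brightest probe was spotted 10 times on each array, and outlier spots were left out, so that 8 to 10 spots stood behind each value. In A2780CBN the mean signal over these spots was 213, 222, 162 and 196 in the line and 11.5, 10.9, 8.02 and 11.2 in the control. On no array did the control reach the mark for well above background, with 1 of 10 spots doing so on array 1 and none on the others. The log2 ratio was 4.26 ± 0.11, which as a bound is at least 8.77-fold higher. The second probe gave 42.7, 48.5, 49.2 and 56.9 in the line and 4.37, 7.29, 5.08 and 6.89 in the control, a log2 ratio of 3.09 ± 0.26 and a bound of at least 2.26-fold higher. Both probes near the 3′ end therefore gave the same direction. The upstream probe was at 4.57 to 5.54 in the line and 4.51 to 5.76 in the control and was not above background on any array. Whether its distance from the 3′ end bears on its signal was not tested. In A2780CBNDXL all 3 probes were not above background in line and control, with signals of 5.05 to 7.88 for the brightest probe in the line, so FN1 had no measured level there.

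VIM, the vimentin gene, was bright in every channel. In A2780CBN the best probe gave 236902, 229170, 316087 and 244337 in the line and 71523, 158850, 105074 and 173868 in the control. Every line value lay above every control value. The log2 ratio was 1.73 and 1.59 with forward labelling and 0.53 and 0.49 with reverse labelling, so the mean of 1.08 ± 0.67 was beyond 2-fold while the reverse arrays alone gave 0.51. The second VIM probe varied less with the dye. It gave 1.21, 0.88, 1.21 and 0.94, with a mean of 1.06 ± 0.17, or 2.08-fold. In A2780CBNDXL the ratio was 0.30 ± 0.04 by the best probe and 0.16 ± 0.09 by the second, with 196236 to 306407 in the line and 166692 to 243906 in the control by the best probe. The ranges of line and control overlapped across arrays, although the line was above the control within each array.

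Of the keratins, KRT18 rose in A2780CBN by all 3 of its probes. The best probe gave 2463, 2491, 2464 and 2831 in the line and 1264, 1089, 1362 and 1257 in the control. Line and control did not overlap, and the log2 ratio of 1.05 ± 0.16 was a 2.06-fold difference. The second probe gave 1.27 ± 0.23 and the middle probe 1.14 ± 0.07. In A2780CBNDXL the best probe gave 1793, 2176, 2180 and 2245 in the line against 1265, 1577, 1564 and 1480 in the control, and the log2 ratio was 0.51 ± 0.06. The other probes gave 0.66 ± 0.32 and 0.66 ± 0.18, so that KRT18 was above the control on every array by every probe and inside the 2-fold limit in this line.

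KRT8, whose product pairs with that of KRT18 in filaments and whose gene lies beside it on chromosome 12, did not pass the rule in either line. Its best probe, from 51577293 to 51577352, gave 596, 687, 591 and 524 in A2780CBN and 717, 939, 675 and 769 in the control, a log2 ratio of -0.37 ± 0.17. In A2780CBNDXL it gave 994, 948, 718 and 746 against 833, 858, 671 and 641, a log2 ratio of 0.18 ± 0.07. The ratio was thus below 0 on all 4 arrays of one line and above 0 on all 4 arrays of the other, at sizes under 2-fold. A second KRT8 probe was not above background anywhere. KRT19, the smallest keratin and one without a tail domain, was dim. In A2780CBN it gave 13.2, 32.8, 33.8 and 47.1 in the line and 27.4, 34.4, 57.9 and 47.6 in the control, a log2 ratio of -0.48 ± 0.51. In A2780CBNDXL it gave 22.3, 37.8, 65.1 and 45.4 against 16.0, 9.48, 50 and 25.6, a log2 ratio of 0.92 ± 0.74, and the control was above background on only 2 of 4 arrays. The ranges of line and control overlapped in both lines.

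Across all 20 probes, 15 could be tested in A2780CBN and 8 of them changed, beside 12.1% of the 25052 probes tested in that line. In A2780CBNDXL 13 could be tested and 2 changed, beside 16.4% of 23802 probes. The 8 probes were the best ZEB2 probe, both VIM probes, both FN1 probes near the 3′ end and the 3 KRT18 probes, so that wherever several probes of VIM or KRT18 were measured they fell on the same side of the limit. Probes of 1 gene share their target and are not replicates.

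**Figure D2:**
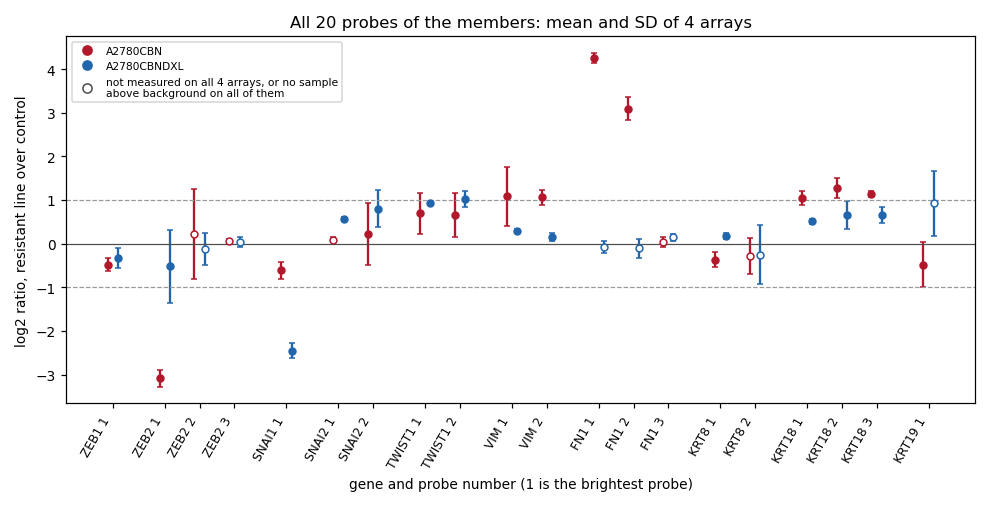
Mean log2 ratio of line to control (vertical axis, bars are the SD of the arrays) for each of the 20 probes, numbered by brightness within a gene (horizontal axis), A2780CBN in red and A2780CBNDXL in blue, open where a probe was not measured on all 4 arrays or neither sample was above background on all of them. The 3 KRT18 probes stand at 1.05, 1.27 and 1.14 in A2780CBN and at 0.51, 0.66 and 0.66 in A2780CBNDXL.

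The study asked whether resistance to both drugs brings the changes of resistance to one, so the lines were then compared with each other. The difference of their log2 ratios was taken between arrays matched for slide and labelling, and a gene counted as different when the mean difference was at least 1 in size, with the same sign in all 4 pairs, and the gene was above background on all arrays of at least 1 of the 4 channels. Of the 9 members tested, 4 differed, beside 18.8% of all 17627 genes tested. A2780CBNDXL had the lower ratio for SNAI1, with a difference of -1.84 ± 0.03, and for FN1, and the higher ratio for KRT19, with 1.40 ± 0.53, and for ZEB2. The measured differences of -4.32 ± 0.23 for FN1 and 2.58 ± 0.74 for ZEB2 rest on channels at background and are not exact sizes. In A2780CBNDXL the line for SNAI1 and the control for KRT19 were above background on only 2 of 4 arrays, so their differences are not exact either. With normexp and loess none of the 4 passed, but the offset of that method draws dim ratios toward 0, and all 4 rest on dim channels. The difference was -1.49, -0.20, -1.29 and -0.16 for VIM in the 4 pairs, which averaged -0.78 ± 0.70, and it was -0.53 ± 0.15 for KRT18, 0.55 ± 0.20 for KRT8, 0.21 ± 0.43 for TWIST1 and 0.15 ± 0.27 for ZEB1. For SNAI2 the 3 pairs left gave 0.53, 0.45 and 0.55.

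A difference of ratios can come from the lines or from the controls hybridized beside them, so both were set against each other after the channels had been scaled between arrays by the Aquantile method. For ZEB2 the measured difference of the lines was 2.75 ± 0.83 on the log2 scale, with A2780CBNDXL higher in all 4 pairs, and the controls by 0.18 ± 0.56. Since A2780CBN was not above background, a bound was computed as before and gave 2.00-fold. It averages all 4 arrays of A2780CBNDXL, which was above background on only 2, so it is not a firm lower limit. For SNAI1 the line A2780CBNDXL was the lower one, at -1.35 ± 0.10, and its control the higher one, at 0.49 ± 0.12, each in all 4 pairs. For FN1 A2780CBN was at least 10.1-fold above A2780CBNDXL by the best probe and at least 2.60-fold by the second, while neither control was above background. KRT19 behaved in another way, since the lines differed by 0.32 ± 0.37 and the controls by -1.08 ± 0.63, the control of A2780CBNDXL being lower in all 4 pairs.

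The controls also differed for VIM. The control of A2780CBNDXL exceeded that of A2780CBN by 0.52 ± 0.43 with the best probe and by 0.60 ± 0.29 with the second, in all 4 pairs, while the lines differed by -0.26 ± 0.30 and -0.30 ± 0.19. When A2780CBN was set against the control of the other line's arrays, the log2 ratio of VIM was 0.56 and 0.46 by these probes, below 2-fold. KRT18 behaved differently from VIM here, with controls 0.09 ± 0.14 apart and the lines -0.45 ± 0.06 apart by the best probe, and with A2780CBN the higher line in all 4 pairs for each of the 3 probes. Against the other control KRT18 of A2780CBN stood at 0.96, 1.25 and 1.17 by the 3 probes. Against the other control ZEB2 of A2780CBN was at least 2.86-fold lower and FN1 of A2780CBN at least 10.4-fold higher. SNAI1 of A2780CBNDXL, above background on 2 of 4 arrays, stood at -1.96 there, and SNAI1 of A2780CBN, inside the limit against its own control, stood at -1.10 against the other. For TWIST1 A2780CBNDXL was above A2780CBN by 0.55 ± 0.11 and its control above the other by 0.33 ± 0.40, and against the other control TWIST1 stood at 0.37 in A2780CBN and at 1.25 in A2780CBNDXL.

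**Figure D3:**
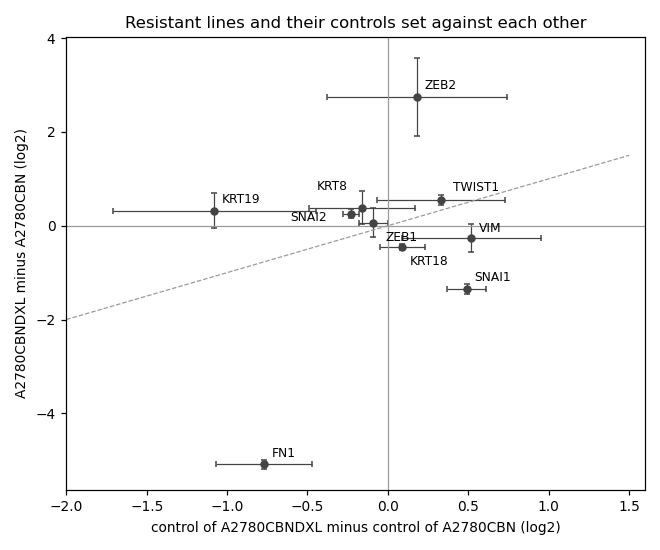
Difference A2780CBNDXL minus A2780CBN between the resistant lines (vertical axis, log2 scale) against the same difference between the controls of their arrays (horizontal axis, log2 scale) for the best probe of each member, with the mean of the 4 matched pairs (3 for SNAI2) and bars for the SD. On the dashed line the lines and their controls differ alike. FN1, at -5.09, and ZEB2, at 2.75, stand far from 0 on the vertical axis, as measured values that each rest on a line at background, and KRT19, at -1.08, on the horizontal axis.

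The order of the 4 channels differed between members. A gap was compared with the larger SD of both neighbours. SNAI1 ran from the control of A2780CBNDXL at 7.73 ± 0.18 (log2 of the scaled signal) over the control of A2780CBN at 7.24 ± 0.18 and A2780CBN at 6.64 ± 0.05 to A2780CBNDXL at 5.28 ± 0.15, and each gap was larger than the SD. TWIST1 had the lines first, A2780CBNDXL at 14.52 ± 0.18 and A2780CBN at 13.98 ± 0.18, then the control of A2780CBNDXL at 13.61 ± 0.15 and that of A2780CBN at 13.28 ± 0.32, again with each gap above the SD. Over the 4 matched pairs, however, the TWIST1 controls differed by 0.33 ± 0.40, with that of A2780CBNDXL higher in 3. The order of these controls is therefore not settled. For KRT18 A2780CBN at 11.40 ± 0.12 stood first and A2780CBNDXL at 10.95 ± 0.08 second, and the controls at 10.44 ± 0.03 and 10.35 ± 0.17 were not apart beyond their SD. For VIM both lines, at 18.04 ± 0.17 and 17.78 ± 0.14, stood above the controls at 17.48 ± 0.11 and 16.96 ± 0.51.

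For ZEB1 the controls, at 7.07 ± 0.13 and 6.98 ± 0.14, formed one pair and the lines, at 6.65 ± 0.14 and 6.59 ± 0.26, another, and the gap between the pairs was larger than the SD while those within them were not. For ZEB2 only the gap above A2780CBN, from 5.54 ± 1.05 in A2780CBNDXL to 2.79 ± 0.25, was larger than the SD. For FN1 the gap below A2780CBN was larger than the SD, and so was the one between the controls, at 3.40 ± 0.23 and 2.63 ± 0.22, both of which were not above background. For SNAI2 only the control of A2780CBNDXL, at 12.12 ± 0.24, was apart from its neighbour, the control of A2780CBN at 12.44 ± 0.26 (n = 3 arrays). Over the 3 matched pairs these controls differed by -0.23 ± 0.05, which is smaller in size than either SD, so the gap depends on the arrays compared. No neighbours in the order differed beyond the SD for KRT8 or for KRT19.

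**Figure D4:**
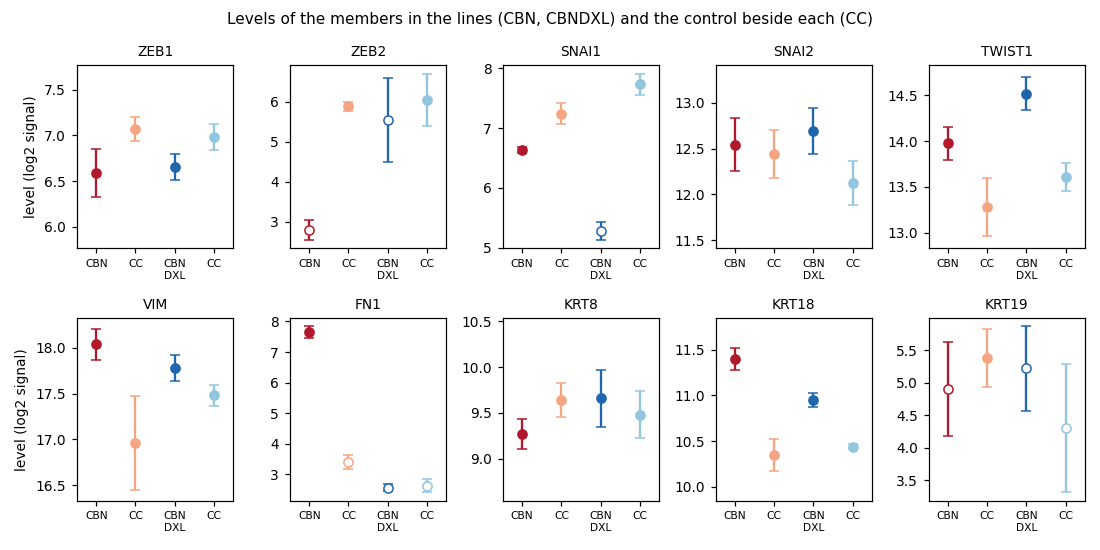
Level of each member (vertical axis, log2 of the signal scaled between arrays, one axis per gene) in the A2780CBN line, its control (CC), the A2780CBNDXL line and its control (CC), as the mean of the arrays with the SD, open where the probe was not above background on all arrays. FN1 stands at 7.66 in A2780CBN and at 2.56 to 3.40 elsewhere, and ZEB2 at 2.79 in A2780CBN and at 5.54 to 6.05 elsewhere.

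Other genes of the same pathway were taken from 7 lists, which are described by counts and medians. Over all genes tested, 8.0% were higher and 4.55% lower in A2780CBN, with a median of -0.06, and 7.7% were higher and 9.2% lower in A2780CBNDXL, with a median of 0.04. Of 12 other transcription factor genes linked to the transition, 7 were tested in A2780CBN, where 1 was higher and 2 were lower, and 6 in A2780CBNDXL, where 1 was lower. The medians of the genes tested were -0.11 and -0.29. TWIST2, the paralogue of TWIST1, was at least 4.70-fold lower in A2780CBN, with mean signals of 13.5 in the line and 106 in the control, and had a log2 ratio of -0.98 ± 0.13 in A2780CBNDXL. SNAI3 was higher in A2780CBN at 1.69 ± 0.72, where it was dim, with a mean signal of 51.0. The control of SNAI3 was above background there on only 1 of 4 arrays. The forkhead gene FOXC1 was lower at -4.59 ± 0.19 in A2780CBNDXL and stood at -2.60 ± 0.25 on the 3 arrays that measured it in A2780CBN. With an array missing, it was not tested in A2780CBN.

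On the epithelial side, CDH1 was not above background on any array of any channel, with mean signals of 5.47 and 5.58 in A2780CBN and its control and 6.26 and 6.15 in A2780CBNDXL and its control. Of 12 epithelial transcription and splicing factor genes 3 were tested in A2780CBN, none of which changed, and 4 in A2780CBNDXL, where ELF3 was lower at -1.04 ± 0.60, and the medians were -0.24 and -0.01. The A2780CBNDXL line was above background for ELF3 on only 2 of 4 arrays. Of 28 junction and surface genes, 19 were tested in A2780CBN, with 3 higher, 2 lower and a median of -0.14, and 20 in A2780CBNDXL, with 5 higher, 2 lower and a median of 0.19. EPCAM, an epithelial adhesion molecule, was higher in both, at 2.07 ± 0.30 and 1.67 ± 0.24. In A2780CBNDXL the control of EPCAM was above background on 3 of 4 arrays. The tight junction gene OCLN was lower in A2780CBNDXL at -4.37 ± 0.19 and stood at -0.40 ± 0.13 in A2780CBN. The A2780CBNDXL line was above background for OCLN on only 2 of 4 arrays, so -4.37 is not an exact size. PKP2, a desmosomal plaque gene, was at least 1.97-fold lower in A2780CBN. It was higher in A2780CBNDXL at 2.45 ± 0.48, with a control above background on 3 of 4 arrays. DSG2, a desmosomal cadherin gene, was at least 3.20-fold lower in A2780CBN and at -0.23 ± 0.51 in A2780CBNDXL. TJP3, a tight junction scaffold gene, was higher in A2780CBN at 1.30 ± 0.38 and stood at 0.58 ± 0.35 in A2780CBNDXL.

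Of 29 mesenchymal genes, 21 were tested in A2780CBN, with 7 higher, 4 lower and a median of 0.55, and 24 in A2780CBNDXL, with 10 higher, 4 lower and a median of 0.68. The list did not move in one direction in either line. The type I collagen gene COL1A2 was lower in both lines, at -5.67 ± 0.15 and -2.81 ± 0.07, as was POSTN, the periostin gene, at -2.18 ± 0.35 and -6.08 ± 0.06. COL1A2 was above background on 3 of 4 arrays of the A2780CBN line. CTGF, a matricellular growth factor gene, was lower in A2780CBN at -2.77 ± 0.29 and at least 25.7-fold lower in A2780CBNDXL. The cadherin gene CDH11 was at least 537-fold higher in A2780CBNDXL, with a mean signal of 10709 in the line and a control that was not above background, and was not above background in A2780CBN. MMP2, a matrix metalloproteinase gene, was at least 6.59-fold higher in A2780CBNDXL and not above background in A2780CBN. PDGFRB, a growth factor receptor gene, was higher in A2780CBN at 2.36 ± 0.12, and in A2780CBNDXL, where it was not tested, it stood at -2.53 ± 0.71. LUM, the lumican gene, was at least 2.21-fold higher in A2780CBN and higher in A2780CBNDXL at 2.51 ± 0.18. CDH2, which encodes N-cadherin, stood at -0.21 ± 0.14 in A2780CBN and at 1.55 ± 0.28 on the 3 arrays that measured it in A2780CBNDXL.

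Markers of fibroblasts were examined beside these genes. Of 9 fibroblast markers, 8 of which are in the mesenchymal list too, 6 were above background on all arrays in A2780CBN and 6 in its control. THY1 is not among the 6, since it was above background on 3 of 4 arrays in both, at mean signals of 9344 and 7753. The signal summed over the 9 markers, as far as measured on an array and including those not above background, was 37985 to 56647 in the line and 19503 to 30382 in the control. In A2780CBNDXL 8 were above background and in its control 7, with sums taken in the same way of 60851 to 83085 and 29154 to 39965. The sums of line and control did not overlap in either line. COL3A1, named after its values were seen, made the largest part of both sums, with mean signals of 40143 and 14983 in A2780CBN and its control and 42590 and 19088 in A2780CBNDXL and its control. The markers did not all go one way, since 4 of 7 tested were higher and 2 lower in A2780CBN, and 6 of 8 higher and 1 lower in A2780CBNDXL, with COL1A2 lower in both. Whether they bear on FN1, VIM or the mesenchymal list was not tested.

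Of 8 genes for fibronectin receptors and partners, 6 were tested in A2780CBN with a median of 0.65. TGM2, a transglutaminase gene, was higher there at 2.04 ± 0.30, with a control above background on only 2 of 4 arrays. In A2780CBNDXL 4 of the 8 genes were tested with a median of -0.05. The integrin gene ITGAV was lower there at -2.28 ± 0.40, with 0.63 ± 0.11 in A2780CBN. Of 14 other intermediate filament genes, 11 were tested in A2780CBN, of which 1 was higher and 2 were lower, with a median of -0.25, and 9 in A2780CBNDXL, of which 3 were lower, with a median of -0.02. NEFL, a neurofilament gene, was lower in both, at -3.70 ± 0.24 and -3.16 ± 0.39. The lamin gene LMNB1 was lower at -1.87 ± 0.12 in A2780CBN, where PRPH, the peripherin gene, was higher at 1.1 ± 0.21. INA, which encodes internexin, and SYNM, which encodes synemin, were lower in A2780CBNDXL at -3.90 ± 0.32 and -1.77 ± 0.17 and stood at -0.02 ± 0.08 and -0.25 ± 0.05 in A2780CBN. Of 50 other keratin genes 12 were tested in A2780CBN and 13 in A2780CBNDXL. KRT80 was the one that changed in each, at 2.49 ± 0.50 and 2.73 ± 0.67. In A2780CBNDXL the control of KRT80 was above background on 3 of 4 arrays. The median of the other keratins was -0.15 in A2780CBN and 0.27 in A2780CBNDXL.

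The promoters of the members were searched for E-boxes in windows of 300 bases, from 250 bases before to 50 after a transcription start, taken from RefSeq on GRCh38.p14. The table held 11 such windows for 5 members, namely 7 for ZEB1 and 1 each for ZEB2, VIM, FN1 and KRT8. The E-box that SNAI and ZEB proteins read, CAGGTG or its reverse complement CACCTG, was in 2 of the 11 windows, both of ZEB1, beside 20.6% of all 35116 promoters of that length. The wider motif CANNTG, which includes the former and reads the same on both strands, was in 6 of the 11 windows, beside 68.7% of all promoters. The windows of VIM and FN1 held neither. These matches describe the letters in the windows and were not set against binding data.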

How the data were processed

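RNA of A2780CBN and A2780CBNDXL, 1 pooled sample each, was hybridized with RNA of the co-cultured control on 4 Agilent arrays per line. The deposited intensities were made by the authors with Agilent Feature Extraction, whose version was 10.7.1.1 for the first slide and 10.7.3.1 for the other, and the processed intensity of each channel was already background-subtracted and dye-normalized within the array. The raw and background-subtracted intensities served alternatives only. Background subtraction leaves dim signals uncertain, which is why bounds are given. The forward arrays carry the line in Cy5 per the labels. The labels repeat this for the reverse arrays, whose name and the methods state a swap, and these were turned over, after which the log2 ratios of forward and reverse arrays correlated at 0.58 to 0.74. Outlier spots were left out and the spots of a probe averaged. The log2 ratio of line over control was averaged within and then over labelling directions. The number of arrays limits the precision.

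The members and gene lists were chosen with earlier results of these data known. All 10 members are named, with up to 4 genes per other list and line by size of ratio among those passing the 2-fold rule, and CDH1 and CDH2. Not every gene that this rule selects is reported here. The 3-way ANOVA of the methods and limma, both at a false discovery rate of 0.05, were alternatives whose error is that of the arrays alone, and normexp background correction (offset 50) with loess, other filters, limits and probes, single slides and arrays left out were tried too. The rules were also run on simulated arrays, whose outcome is not reported here and on which no statement rests. Python 3.11.15 was used with pandas 2.3.3, numpy 2.4.6 and matplotlib 3.10.9, and R 4.3.3 with limma 3.58.1. The A2780DXL line was not analysed here.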

Additional observations from a re-analysis of the deposited data

Results flagged for a closer look

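KRT8 had a log2 ratio below 0 on every array of A2780CBN and above 0 on every array of A2780CBNDXL, and the ratios differed by 0.55 (A2780CBNDXL minus A2780CBN). KRT19 showed the same pattern with a difference of 1.40, at signals near background and with controls that differed by -1.08. KRT19 is among the members that passed the 2-fold rule for differences between the lines and KRT8 is not. That rule rests on size and sign over arrays, and with 1 sample per line neither difference was tested across cultures.

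Among the 39 sets of 4 array values of a probe in a line, 2 held 1 array far from the other 3, where chance gives about 1 in 20. One was the dimmest ZEB2 probe in A2780CBNDXL, at a log2 ratio of 0.23, and the other the second FN1 probe in A2780CBNDXL, at -0.43. Neither probe was above background in that line.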

How the results depend on the processing

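In A2780CBN 4 members changed, in A2780CBNDXL 1, and 4 differed between the lines. Leaving out each array or matched pair in turn gave 4 to 4, 1 to 1 and 4 to 4 members, and each slide alone, no filter on dim probes, the 3-way ANOVA and limma, where run, gave the same counts. Normexp with loess gave 1, 0 and 0 members, with VIM remaining in A2780CBN, and over all genes 604 and 1172 in place of 2253 and 2893. The offset of that method draws the ratios of dim genes toward 0, so these losses do not decide whether the dim members changed. Requiring both channels to be well above background gave 2 members in A2780CBN (VIM and KRT18), 0 in A2780CBNDXL and 0 between the lines, since the dim genes leave the test. A limit of 1.5-fold gave 6, 2 and 5, adding TWIST1 in both lines, SNAI1 in A2780CBN and VIM between the lines, and over all genes 4860 and 5699. Background-subtracted signals and the mean over probes each gave 3, 1 and 3, without ZEB2. With background-subtracted signals ZEB2 stood at -3.19 in A2780CBN but was no longer among the members tested. As the mean over its probes it stood at -0.94, its other probes not being above background in any channel. Of 178 log2 ratios of members recomputed under these settings, 156 moved by less than the SD of the arrays and 22 by more, and no called ratio changed sign. The ratio of KRT8 in A2780CBNDXL, not called, was -0.04 as the mean over its probes. That of SNAI2 in A2780CBN, not called either, was -0.01 with background-subtracted signals. Dim signals limit ZEB2, FN1, SNAI1 and KRT19. No paired analysis was possible because each line has 1 sample.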
